A study of Mus musculus with 6 samples.

Results

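The CDK inhibitor genes are the 7 genes of 2 small families whose proteins hold back the cyclin-dependent kinases, the enzymes that drive a cell through its division cycle. They were followed in embryonic mouse spleens of stage E13.5 on 3 Affymetrix arrays of Tlx1 homozygous and 3 of Tlx1 heterozygous tissue. Tlx1 encodes a homeobox transcription factor needed for the development of the spleen. The labels give the zygosity and neither the allele, the strain nor the number of embryos per array, and homozygous is taken to mean 2 copies of the altered allele, of which heterozygous spleens then carry a copy too. A gene was counted as measured where a probe set listed it as its only symbol, and its brightest probe set over the 6 arrays was used. This held for 6 of the 7 genes, of 18710 genes tested in all. Cdkn1a, which encodes p21, shares its probe set with a second symbol and is therefore given no value. Cdkn1b had a second, dimmer probe set, and each of the others had 1.

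The CIP/KIP proteins p21, p27 (Cdkn1b) and p57 (Cdkn1c) bind cyclin-CDK complexes broadly. The INK4 proteins p15 (Cdkn2b), p16 (Cdkn2a), p18 (Cdkn2c) and p19 (Cdkn2d) bind only CDK4 and CDK6 and keep them from D-type cyclins. Both families keep the retinoblastoma protein unphosphorylated, so that E2F factors stay off and replication does not start. In embryos p57 and p27 are known for cell cycle exit as tissues differentiate, whereas p15 and p16 are usually low before birth.

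Array medians lay between 106 and 110 intensity units, and the lowest correlation of log2 values was 0.995 within a group and 0.989 across the groups. Tlx1 averaged 193 ± 19.9 in homozygous and 750 ± 65.3 in heterozygous spleens (SD, n = 3 each). Of all genes tested, 17.0% were called, 10.4% as higher and 6.56% as lower in homozygous spleens, where called means an adjusted p below 0.05 in limma. Nothing in the labels says that replicates came from separate embryos, so p-values cover only sample-to-sample spread, which may be technical. In whole spleens fewer cells of a type and less RNA per cell cannot be told apart.

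Of the 6 measured CDK inhibitor genes, 1 rose, 1 fell and 4 did not pass. Cdkn1c rose and Cdkn1b fell, so the genes that passed went in opposite directions within the CIP/KIP family. The share called, 2 of 6, stands beside 17.0% of all genes, and with so few genes it says little about the family. Groups did not overlap for 3 of the 6, as for 38.3% of all genes tested. The median log2 fold change over the 6 genes was 0.09, against 0.02 over all genes tested.

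**Figure D1:**
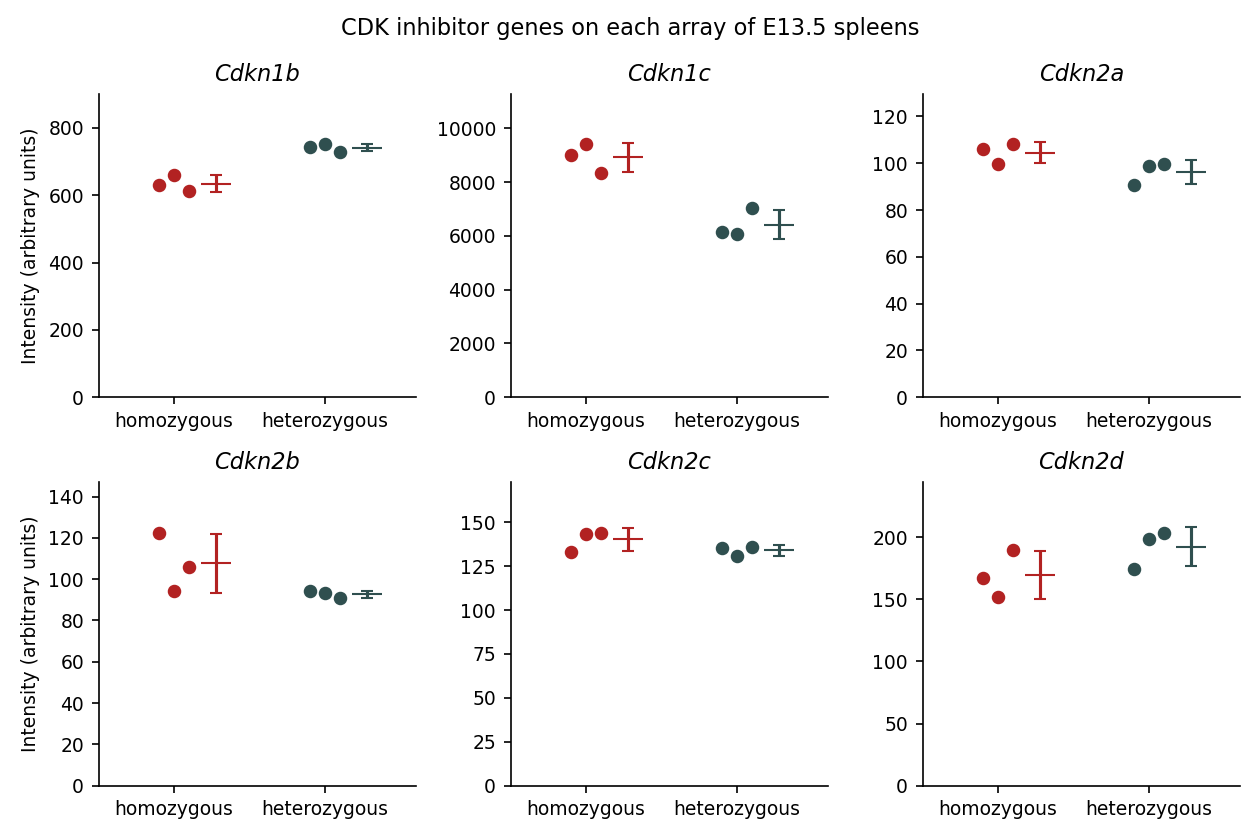
Intensity of each measured CDK inhibitor gene on each array (points), with the mean and SD of its group (dash and bar, n = 3), homozygous at left and heterozygous at right; each panel has its own axis from 0. The homozygous arrays lie above the heterozygous ones for Cdkn1c and below them for Cdkn1b, and the groups overlap for Cdkn2a, Cdkn2c and Cdkn2d.

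Cdkn1c encodes p57, a CDK inhibitor expressed from the maternal copy alone, which marks cells that leave the cycle during development. Its intensity was 9023, 9419 and 8326 on the homozygous arrays and 6136, 6065 and 7041 on the heterozygous arrays. All homozygous values lay above all heterozygous values, with a gap wider than the spread within either group. The means were 8923 ± 553 and 6414 ± 544 (SD, n = 3 each), a 1.39-fold rise. The log2 fold change was 0.48 ± 0.08 (SE; 95% interval 0.29 to 0.66; limma adjusted p = 0.00751). Only 3.97% of genes tested had a larger change in either direction, and among the 1951 genes called higher it ranked 409 by size. The call held in all 6 refits that left out 1 array, with log2 fold changes of 0.44 to 0.55, and under the other 14 settings tried, with 0.46 to 0.57.

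Cdkn1b encodes p27, which restrains CDK2 and is removed by the SKP2 ubiquitin ligase as cells enter S phase. Its intensity was 630, 661 and 612 on the homozygous arrays and 743, 752 and 729 on the heterozygous arrays. The homozygous values were all lower, and the difference was small. The means were 634 ± 25.2 and 741 ± 11.2 (SD, n = 3 each), with a log2 fold change of −0.23 ± 0.06 (SE; 95% interval −0.36 to −0.09; limma adjusted p = 0.0374). A change at least as large as that of Cdkn1b was not rare, since 26.4% of genes tested had a larger one.

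The second probe set of Cdkn1b read 321, 268 and 296 on the homozygous arrays and 352, 352 and 335 on the heterozygous arrays. Its groups did not overlap either, and its log2 fold change was −0.24 ± 0.08 (SE), but with each probe set tested on its own it did not pass (limma adjusted p = 0.0694). The call of Cdkn1b depended on single arrays. It held without homozygous replicate 2 (adjusted p = 0.0335) and was lost without homozygous replicate 1 (0.108) or 3 (0.084) and without heterozygous replicate 1 (0.103), 2 (0.122) or 3 (0.0688), while the log2 fold change stayed between −0.26 and −0.20. It was also lost after quantile normalization (0.087), after cyclic loess (0.0909) and when the level of Y-linked genes was a covariate (0.13).

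The promoter of Cdkn1b is shown because it is the promoter of a gene that passed. It is the 250 bases before the annotated start in RefSeq (GRCm38.p6, chr6:134920151-134920400, + strand), with capitals marking matches to the motifs named after it.
Cdkn1b: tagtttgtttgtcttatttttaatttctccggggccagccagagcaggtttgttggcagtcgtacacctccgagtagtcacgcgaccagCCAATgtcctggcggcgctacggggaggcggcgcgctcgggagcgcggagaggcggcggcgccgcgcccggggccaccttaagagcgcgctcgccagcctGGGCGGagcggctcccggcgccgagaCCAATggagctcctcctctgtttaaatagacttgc
It holds the CCAAT box (CCAAT) in 2 places and the GC box (GGGCGG) once, which 33.8% and 32.7% of 32851 windows of this length hold. No match was found to the retinoic acid receptor core AGGTCA (in 14% of windows), the homeodomain core TAATTA (4.84%), the E2F sites TTTGGCGC (0.417%) and TTTCCCGC (0.895%), the Myc E-box CACGTG (6.02%) or the T-box core GGTGTGA (3.33%). Both strands were searched, no matches overlap here, and a match is only a run of letters.

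**Figure D2:**
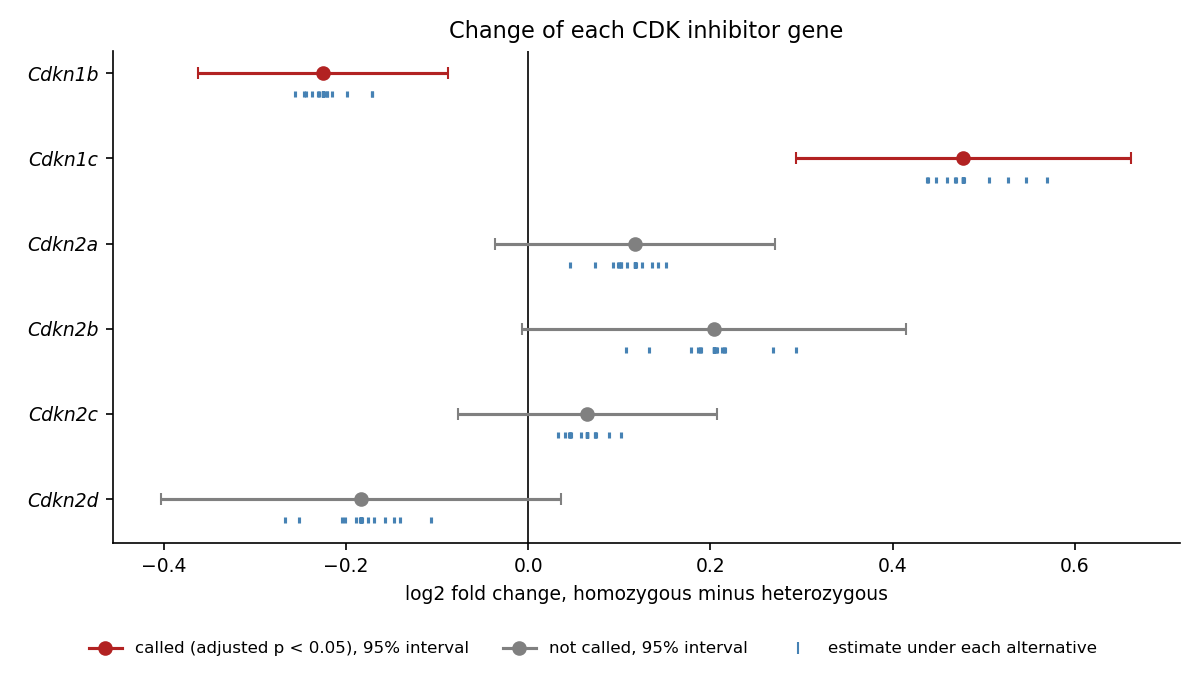
Log2 fold change of each measured CDK inhibitor gene, homozygous minus heterozygous (points, with 95% intervals from limma), and the estimate under each of the alternative settings and refits (ticks below each point). Every tick lies on the same side of 0 as its point, and the intervals of the 4 Cdkn2 genes include 0.

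None of the 4 INK4 genes passed in limma, none had an unadjusted p below 0.05 (lowest 0.0558 for Cdkn2b), and each estimate was smaller than that of Cdkn1c. Cdkn2b encodes p15, which TGF-beta induces in many cell types. It read 123, 94.4 and 106 on the homozygous arrays and 94.2, 93.1 and 90.9 on the heterozygous arrays. The groups did not overlap, but homozygous replicate 2 lay just above the highest heterozygous array. The log2 fold change was 0.20 ± 0.09 (SE; 95% interval −0.01 to 0.42; limma adjusted p = 0.157). Homozygous replicates 1 and 2 pulled it apart, at 0.11 without replicate 1 (adjusted p = 0.415) and 0.29 without replicate 2, where it passed (adjusted p = 0.0432).

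Cdkn2a makes p16 from its downstream start and, from a second start upstream, the alternative reading frame protein ARF, which blocks MDM2 and so protects p53. Its single probe set was not assigned to either transcript here. It read 106, 99.7 and 108 on the homozygous arrays and 90.5, 98.9 and 99.7 on the heterozygous arrays. The groups met at the same value, and the log2 fold change of 0.12 ± 0.07 (SE; 95% interval −0.04 to 0.27; limma adjusted p = 0.254) leaves room for a rise of up to 0.27. Cdkn2a and Cdkn2b read near the array medians, and whether these readings stand above background was not tested.

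The windows of 250 bases before both annotated starts of Cdkn2a are shown because the probe set gives 1 value for a gene with 2 promoters (RefSeq, GRCm38.p6, − strand; chr4:89294620-89294869 upstream and chr4:89282193-89282442 downstream). Capitals mark matches to the same motifs.
Cdkn2a upstream start: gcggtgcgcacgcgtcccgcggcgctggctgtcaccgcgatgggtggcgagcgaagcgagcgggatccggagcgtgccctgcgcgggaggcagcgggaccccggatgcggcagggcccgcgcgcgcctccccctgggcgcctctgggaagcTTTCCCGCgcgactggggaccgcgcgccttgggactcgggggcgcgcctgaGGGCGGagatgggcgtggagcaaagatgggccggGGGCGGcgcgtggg
Cdkn2a downstream start: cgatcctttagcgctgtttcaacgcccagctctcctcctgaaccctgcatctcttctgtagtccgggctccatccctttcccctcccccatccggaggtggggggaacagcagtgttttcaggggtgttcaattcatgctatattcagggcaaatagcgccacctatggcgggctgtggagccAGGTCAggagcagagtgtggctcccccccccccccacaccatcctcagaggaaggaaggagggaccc
The upstream window holds the GC box in 2 places and the E2F site TTTCCCGC once, and the downstream window holds AGGTCA once and no GC box. The T-box core GGTGTGA was found in neither.

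Cdkn2c encodes p18 and Cdkn2d p19, the INK4 proteins most widely expressed in embryos. Cdkn2c read 133, 144 and 144 on the homozygous arrays and 136, 131 and 136 on the heterozygous arrays, with the groups interleaved. Its log2 fold change was 0.06 ± 0.06 (SE; 95% interval −0.08 to 0.21; limma adjusted p = 0.502). Cdkn2d read 167, 152 and 190 on the homozygous arrays and 174, 199 and 204 on the heterozygous arrays. Homozygous replicate 3 lay among the heterozygous values, and the log2 fold change was −0.18 ± 0.10 (SE; 95% interval −0.40 to 0.04; limma adjusted p = 0.215). It ranged from −0.11 without homozygous replicate 2 to −0.27 without homozygous replicate 3, with no call in any refit.

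Cdkn1c lies in an imprinted region of chromosome 7, and of 11 measured genes around it 5 rose and none fell, where 10.4% of all genes rose. Their median log2 fold change was 0.26. Nearest to Cdkn1c on one side, the transporter gene Slc22a18 (0.40 ± 0.10, SE; limma adjusted p = 0.0329) and Phlda2 (0.53 ± 0.08; 0.00613), which restrains placental growth, rose, while Nap1l4 beyond them was flat (−0.01; 0.922). On the other side the potassium channel gene Kcnq1 did not pass (0.28; adjusted p = 0.0806), and further on the tetraspanin gene Cd81 rose (0.40; 0.00741). Kcnq1ot1, listed between Kcnq1 and Cdkn1c, and H19, listed beside Igf2, were not among the genes tested and have no value. The growth factor gene Igf2, expressed from the paternal copy, was at 0.22 (adjusted p = 0.0316) and Th at 0.37 (0.0355), both passing. Igf2, Th, Kcnq1 and Nap1l4 were chosen after their values were seen.

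Phlda2 averaged 110 ± 5.65 in homozygous and 76.1 ± 7.96 in heterozygous spleens (SD, n = 3 each), and Cd81 5074 ± 232 and 3858 ± 179. Phlda2 and Th read near or below the array medians, and so did Slc22a18 on the heterozygous arrays (mean 108). Whether the readings of these genes stand above background was not tested. The calls of Phlda2 and Cd81 held in all 6 refits without 1 array. That of Slc22a18 was lost in every refit but the one without homozygous replicate 2 (log2 fold changes of 0.33 to 0.51) and after cyclic loess (adjusted p = 0.0533). The count of genes higher was 2 without homozygous replicate 1 or 3 or heterozygous replicate 2 or 3, 3 without heterozygous replicate 1 and 7 without homozygous replicate 2. With the Y-linked covariate Phlda2 alone was called, and Cd81 lay near the threshold (adjusted p = 0.0561).

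**Figure D3:**
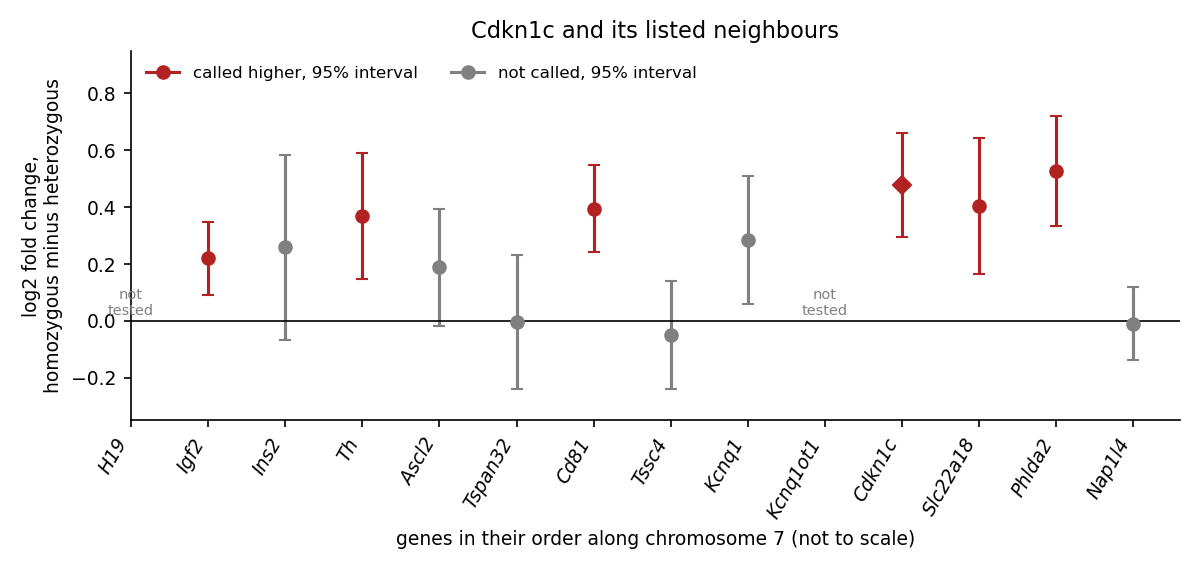
Log2 fold change, homozygous minus heterozygous, with 95% intervals, of Cdkn1c (diamond) and the listed genes around it in their RefSeq order along chromosome 7; distances are not to scale. The called genes are Igf2, Th, Cd81, Cdkn1c, Slc22a18 and Phlda2, with Tspan32, Tssc4 and Nap1l4 between or beside them at about 0. H19 and Kcnq1ot1 were not tested and have no point.

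Around Cdkn2a and Cdkn2b none of 5 measured genes passed in limma, and 2 had an unadjusted p below 0.05. Mtap, a methionine salvage enzyme gene next to Cdkn2a, was at −0.19 ± 0.06 (SE; limma adjusted p = 0.0537) and was called under 5 of the 14 settings (0.0243 with a variance trend). Klhl9 was at 0.18 ± 0.07 (adjusted p = 0.102). Without homozygous replicate 2 the transcription factor gene Dmrta1, beside Cdkn2b and picked with its values in view, was higher (0.42; adjusted p = 0.0264), against 0.28 (adjusted p = 0.147) with all arrays.

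The genes whose 6 values most resembled those of Cdkn1c were Sulf2, which trims heparan sulfate, and Add3 and Epb41l3, which link the membrane to the cytoskeleton. Likeness was the root mean square difference of log2 values after setting each gene's heterozygous mean to 0, and was 0.04 for each of them. Their log2 fold changes were 0.48, 0.51 and 0.45, close to that of Cdkn1c because they were picked by this measure. In all, 149 of the 18710 genes tested lay within 0.1 of Cdkn1c by this measure.

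Of 12 measured genes for the kinases and cyclins that the inhibitors bind, 3 fell and none rose, where 6.56% of all genes fell and 10.4% rose, and their median log2 fold change was −0.06. Ccne2, a cyclin of CDK2, averaged 286 ± 25.8 in homozygous and 360 ± 8.51 in heterozygous spleens (SD, n = 3 each), a log2 fold change of −0.34 ± 0.08 (SE; limma adjusted p = 0.0228). The mitotic cyclin gene Ccnb2 (−0.27; adjusted p = 0.0436) and Ccnd1, a D-type cyclin whose partners the INK4 proteins block (−0.25; 0.0429), were the other 2. The further D-type cyclin genes Ccnd2 (0.004; limma adjusted p = 0.969) and Ccnd3 (0.03; 0.83) did not pass. Ccnb2 and Ccnd1 lost their calls after quantile normalization (adjusted p = 0.0572 and 0.0754), after cyclic loess (0.0696 and 0.0951) and with the replicate number as a block (0.0667 and 0.0535), which left Ccne2 as the single call. With a variance trend or array weights 5 of the 12 fell. Without homozygous replicate 1 or any 1 heterozygous array none of the 12 passed in limma, with 3 to 5 at an unadjusted p below 0.05, and 2 of them passed without homozygous replicate 2 (1 higher and 1 lower) or 3 (both lower). With the Y-linked covariate none passed and 3 had an unadjusted p below 0.05.

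Downstream of the kinases, all 13 measured genes of the RB and E2F proteins had estimates below 0, as did 8681 of all 18710 genes tested, and 3 of them fell, where 6.56% of all genes fell. The median was −0.19. E2f7, a repressor of E2F targets that is itself made in S phase, averaged 335 ± 19.2 in homozygous and 470 ± 13.0 in heterozygous spleens (SD, n = 3 each), a log2 fold change of −0.49 ± 0.07 (SE; limma adjusted p = 0.00295) that passed in all 6 refits. Rb1, the retinoblastoma gene (−0.35; adjusted p = 0.0229), and Tfdp2, an E2F partner (−0.24; 0.0438), also fell. Without 1 array, Rb1 lost its call in the absence of homozygous replicate 1 or 3 or heterozygous replicate 2 or 3 (−0.42 to −0.29 over the refits), and Tfdp2 in every refit (−0.27 to −0.19). Tfdp2 also lost it after quantile normalization (adjusted p = 0.105), after cyclic loess (0.104) and with the replicate block (0.0556). The number called lower was 5 under some settings, among them log2(value + 16) and array weights. E2f7 alone was called without homozygous replicate 1 or 3 or heterozygous replicate 2 or 3, and with the Y-linked covariate.

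Proliferation genes lay the same way, with 11 of 26 lower, none higher, every estimate below 0 and a median of −0.22, beside 6.56% called lower and 8681 of 18710 estimates below 0 over all genes. Kif11, a spindle motor gene, was at −0.42 (limma adjusted p = 0.0298), the replication licensing gene Cdc6 at −0.38 (0.0284) and the spindle checkpoint kinase gene Ttk at −0.35 (0.0144). The number called lower was 18 with a variance trend, 17 when that trend was robust, 7 after cyclic loess and 6 after quantile normalization, which also cost Cdc6 its call (adjusted p = 0.0528). The count was 1 without homozygous replicate 1, 2 without heterozygous replicate 2, 4 without heterozygous replicate 1, 6 without heterozygous replicate 3, 7 without homozygous replicate 3 and 10 without homozygous replicate 2. The median stayed between −0.22 and −0.19 in these refits. Kif11 kept its call in the refit without homozygous replicate 2 alone, Cdc6 also in that without heterozygous replicate 1, and Ttk in all but that without homozygous replicate 1. With the Y-linked covariate none of the 26 passed in limma and 12 had an unadjusted p below 0.05.

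**Figure D4:**
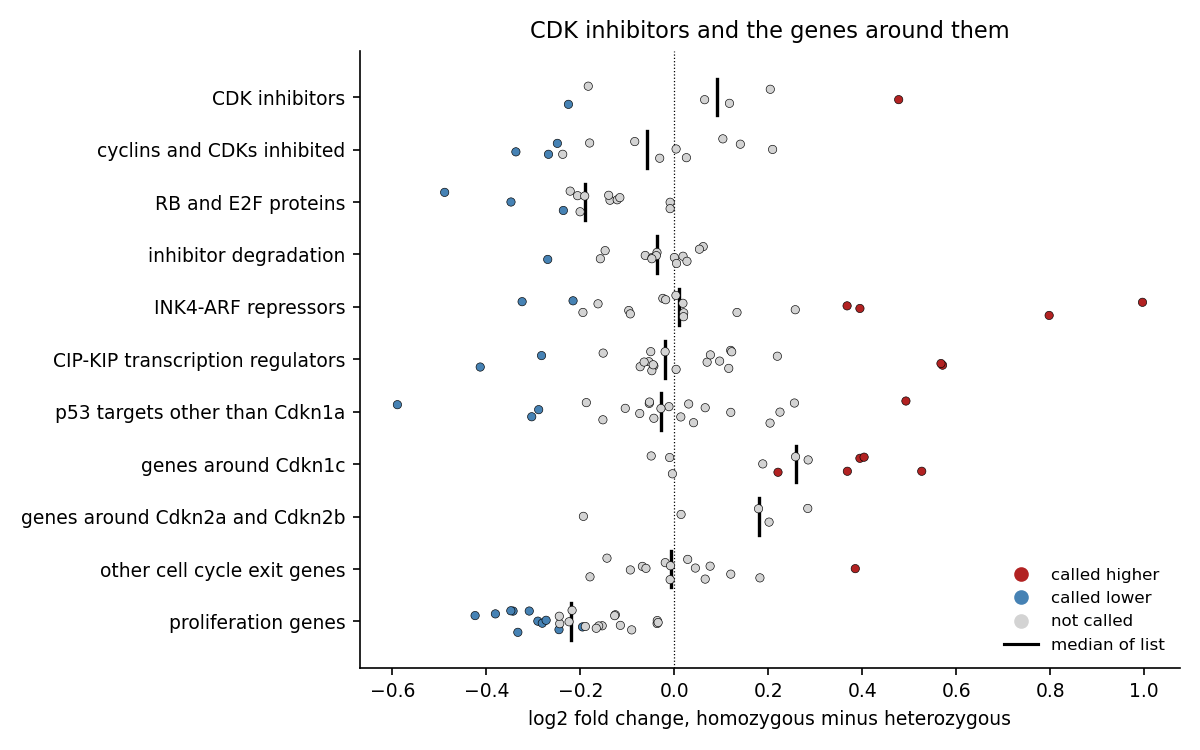
Log2 fold change, homozygous minus heterozygous, of every measured gene (points, jittered vertically) in the CDK inhibitor family and in the lists of genes around it; black bars are list medians. The RB and E2F genes and the proliferation genes all lie below 0, while the CDK inhibitor genes lie on both sides.

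Among 14 measured genes of the machinery that degrades the inhibitors, 1 fell and none rose (median −0.04), a share close to the 6.56% of all genes that fell. It was Skp1, the adaptor of the ligase that removes p27, at 2456 ± 40.8 in homozygous and 2960 ± 45.3 in heterozygous spleens (SD, n = 3 each; log2 fold change −0.27 ± 0.06, SE; limma adjusted p = 0.0169). Its call was lost without homozygous replicate 1 or heterozygous replicate 1 or 2 (−0.28 to −0.26 over the refits) and with the Y-linked covariate (0.116).

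Of 18 measured genes known as repressors of the Cdkn2a and Cdkn2b region, 4 rose and 2 fell (median 0.01), where 10.4% of all genes rose and 6.56% fell. The T-box repressor genes Tbx2 and Tbx3, which hold ARF down in cultured cells, had the largest changes. Tbx2 averaged 1285 ± 30.9 in homozygous and 644 ± 23.9 in heterozygous spleens (SD, n = 3 each), a log2 fold change of 0.996 ± 0.06 (SE; limma adjusted p = 5.7e-05). Tbx3 averaged 653 ± 11.8 and 375 ± 12.3, a log2 fold change of 0.80 ± 0.06 (limma adjusted p = 0.000179). Both passed under every setting and refit. Cdkn2a passed under none, but its probe set was not assigned to the ARF transcript, so a change of ARF was not tested. The Polycomb gene Cbx7 rose by 0.40 (adjusted p = 0.0249), a call lost without homozygous replicate 1 or 3 or heterozygous replicate 1 or 2 (0.33 to 0.48 over the refits). Id1 also rose (0.37; limma adjusted p = 0.0124), while the Polycomb genes Bmi1 (−0.32; 0.0259) and Suz12 (−0.22; 0.0496) fell. Id1, Bmi1 and Suz12 were named after their values were seen. The count was 3, all higher, without homozygous replicate 3 or heterozygous replicate 1 or 2, and with the Y-linked covariate.

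Among 21 measured transcription regulators of the CIP/KIP genes, 2 rose and 2 fell (median −0.02), a share close to the 17.0% called over all genes and so no result about the list. Klf4, an activator of Cdkn1a, was at 0.57 ± 0.07 (SE; limma adjusted p = 0.00266), the retinoic acid receptor gene Rarb at 0.57 ± 0.07 (0.00251) and Mycn, a driver of cell division, at −0.41 ± 0.07 (0.00952). All passed in every refit, and Mycn lost its call with the Y-linked covariate (0.0561), where the list held 2 calls, both higher. Trp53, like Cdkn1a, had no value under the rule.

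Of 21 measured targets of p53 other than Cdkn1a, 1 was called higher and 3 lower (median −0.03), again close to the 17.0% called over all genes. Phlda3, an inhibitor of AKT, averaged 363 ± 35.6 in homozygous and 546 ± 57.8 in heterozygous spleens (SD, n = 3 each; log2 fold change −0.59 ± 0.10, SE; limma adjusted p = 0.0067). The kinase gene Plk2 rose by 0.49 (adjusted p = 0.00564). Gtse1, a G2 phase gene, was at −0.30 (adjusted p = 0.016) and lost its call without homozygous replicate 1 or heterozygous replicate 2 (−0.34 to −0.26 over the refits) and with the Y-linked covariate (0.0775). The count of calls was 2, 1 in each direction, without either of these 2 arrays. Of 15 measured genes of cell cycle exit outside the family, Gas1, a growth arrest gene, alone passed (0.39 ± 0.08, SE; adjusted p = 0.0137), with a median of −0.01 over the list, a smaller share than the 17.0% of all genes. It passed in every refit, and not with the Y-linked covariate (0.074).

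Markers of some other cell types differed between the same samples, and the counts are to be set against 10.4% of all genes called higher and 6.56% called lower. Endothelial markers were lower for 12 of 14 genes, with summed intensities of 7181 to 7742 on homozygous and 9930 to 10249 on heterozygous arrays, erythroid markers for 7 of 10 (10355 to 11157 and 13408 to 14537) and megakaryocyte and platelet markers for 3 of 6 (607 to 839 and 1051 to 1296). Markers of enteric neurons and glia were higher for 5 of 10 (1663 to 1792 and 1135 to 1245), of epithelium for 5 of 12 (3886 to 4281 and 2974 to 3731), of exocrine pancreas for 3 of 8 (2163 to 2441 and 742 to 1388) and of smooth muscle for 2 of 8 (2137 to 2357 and 1690 to 2024). Of 13 measured markers of spleen mesenchyme, Tlx1 among them, 2 rose and 6 fell, with overlapping sums. No marker passed of 12 for macrophages and myeloid cells (3 with an unadjusted p below 0.05) or of 9 for hepatocytes (1 with an unadjusted p below 0.05), and 1 rose and 1 fell of 9 for mesothelium. Of 11 endocrine pancreas markers 1 rose, and 9 rose without homozygous replicate 2.

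The marker counts also depended on single arrays. Without homozygous replicate 1 the calls fell to 7 for endothelium, 3 for erythroid cells, 1 each for epithelium, exocrine pancreas and smooth muscle and 4 for spleen mesenchyme. Without heterozygous replicate 2 they were 1 each for epithelium, exocrine pancreas and smooth muscle, 2 for megakaryocytes and 4 for spleen mesenchyme. Without homozygous replicate 3 they were 2 for epithelium and 1 for smooth muscle, and for spleen mesenchyme they were 4 without heterozygous replicate 1 and 5 without heterozygous replicate 3. With the Y-linked covariate 7 endothelial, 3 erythroid and 3 spleen mesenchyme markers were called. No measured marker of these lists was at 0 on any array. Eif2s3y, a Y-linked gene, read 417, 391 and 392 on the homozygous arrays and 600, 398 and 735 on the heterozygous arrays, so that heterozygous replicates 1 and 3 stood above the rest. The part of cell makeup and of sex makeup in the changes of Cdkn1b, Cdkn1c and the lists around them was not tested beyond the covariate named above, with which Cdkn1c was at 0.57 (limma adjusted p = 0.0215). That covariate, centred over the arrays, was −0.17, −0.27 and −0.27 on the homozygous and 0.39, −0.28 and 0.60 on the heterozygous arrays. Heterozygous replicate 2 alone lay at the homozygous level, so the fit leans on it and can hardly separate sex makeup from zygosity.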

How the data were processed

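Total RNA of 6 spleen samples was measured on Affymetrix mouse arrays. The authors deposited linear intensities per probe set, which GCRMA had background-corrected, normalized and summarised, as the submitters' processing notes name it; version and genome build: not given in the sources used here. Of 35512 probe sets, 21789 carried 1 symbol in the platform annotation, 1621 carried several and 12102 were unnamed in it; those with several or none were left out. Of the 21789, 21698 were found by Entrez identifier in the RefSeq table of GRCm38.p6, and no symbol changed. Probe sets were kept where log2(intensity + 1) was at least 4 on at least 3 arrays, and the brightest per gene was used, giving 18710 genes. The design had foreseen either log2 or linear values, and the linear form applied.

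The fit was limma 3.58.1 in R 4.3.3 (lmFit, eBayes without trend, not robust) on log2(intensity + 1), homozygous minus heterozygous, two-sided, Benjamini-Hochberg over all genes. The added 1 pulls changes of dim genes toward 0. The fitting step was tested on simulated data. The members, gene lists and naming rule were chosen with earlier results of these data known: all 7 members, up to 3 called genes of each list by size of change, or the 2 of smallest p where none was called. Lists share some members. The Y-linked covariate was the mean log2 level of Eif2s3y and Kdm5d, the 2 measured of 3 planned genes. Nothing in the labels says that replicate numbers pair the samples. Deviations of same-numbered arrays correlated at −0.01, 0.04 and −0.11, beside −0.09 to 0.10 for differently numbered ones. With so few arrays these values cannot decide whether the numbers pair samples. The T-box core was added to the motifs after the values were seen. The promoter table of RefSeq covered 6 of the 7 genes. The number of arrays limits the precision.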

Additional observations from a re-analysis of the deposited data

How the results depend on the processing

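Cdkn1c kept its direction and its call under all 14 settings and all 6 refits without 1 array. The other 5 measured inhibitor genes kept their direction in all of these, and Cdkn2a, Cdkn2c and Cdkn2d passed in none. The number of CDK inhibitor genes called was 1 in place of 2 after quantile normalization, after cyclic loess, with the replicate block and with the Y-linked covariate, each time through the loss of Cdkn1b, and ranged from 1 to 3 when 1 array was left out. With the replicate block the adjusted p of Cdkn1b was 0.0644 and that of Cdkn1c 0.0136, and 3163 of all genes were called, against 3178 without it. Nothing in the labels says that the numbers pair the samples, and why calls were lost there was not tested. The count over all genes was 1560 with the Y-linked covariate and 1198 to 3563 without 1 array. Fewer samples or residual degrees of freedom enter these fits, and the cause of the changes in count was not tested. With 3 arrays per group, the intervals of the INK4 genes included 0. What decided this was not tested. Plk1, picked with its values in view, and Mtap changed by about as much as Cdkn2b and Cdkn2d, and their intervals did not include 0. They were also brighter, with homozygous means of 1130 and 563 against 108 for Cdkn2b and 170 for Cdkn2d.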
